A study of Mus musculus with 4 samples.

Results

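The organic ion transporters of the Slc22 family were examined in mouse livers under acute-on-chronic liver failure (ACLF), where sudden injury strikes a liver that is already chronically diseased. The genes described are Slc22a3, Slc22a5, Slc22a7, Slc22a18, Slc22a23, Slc22a26, Slc22a27, Slc22a28 and Slc22a30, taken by symbol, 9 of the 26 Slc22 genes among 21959 genes in the deposited table. RNA of 4 livers was sequenced, 2 from wild-type mice with ACLF treated with baicalein, a flavone from Scutellaria root, and 2 from wild-type mice with ACLF treated with saline. All 4 livers thus share the ACLF model and the genotype, and no healthy liver was analysed here. The labels give no dose, time, age or sex and do not say whether each liver came from its own animal, so the spread given below is that between these samples. The 9 genes were selected on their read counts in these same baicalein and saline livers, so those values are given as a description and without a test.

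Slc22 proteins sit in the cell membrane and move organic cations, organic anions or zwitterions such as carnitine. In hepatocytes they bring drugs, endogenous metabolites and nutrients in from the blood. Rodents carry a set of additional anion transporter genes of this family side by side on 1 chromosome, and several of these are used chiefly in liver or kidney. Slc22a26 and Slc22a27 are known in mouse for higher hepatic expression in females.

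The 4 libraries held 14766061 and 18731616 reads counted to genes in baicalein 1 and 2, and 17673137 and 13976440 in saline 1 and 2. Levels are given as CPM, read counts scaled to the normalised library size, and different genes are compared only in FPKM, which also divides by gene length. Y-linked Ddx3y, Eif2s3y, Kdm5d and Uty together had 2 and 1 counts in the baicalein livers, against 820 and 836 in the saline livers, so treatment and this Y-linked difference cannot be told apart in any comparison here. Summed over 8 skeletal muscle markers, the level was 0.756 and 1202 CPM in baicalein 1 and 2 and 4944 and 1.24 CPM in saline 1 and 2, so 1 liver of each group stood apart. The 5 bile duct markers summed to 29.4 and 129 CPM in baicalein 1 and 2, against 70.7 and 64.5 CPM in saline 1 and 2. Their members differed: Krt19, Krt7 and Epcam were highest in baicalein 2, with Krt19 at 72.2 CPM there. Spp1 (20.4 and 24.1 CPM with baicalein, 50.3 and 49.7 CPM with saline) and Sox9 were lower in both baicalein livers. The 6 hepatocyte markers, led by Alb, were present in every liver, at 116459 and 98802 CPM with baicalein and 83464 and 79031 CPM with saline. Most of that sum was Alb, at 87778.2 and 74260.5 CPM with baicalein and 55863.2 and 53156.5 CPM with saline. Cps1 was also higher in both baicalein livers and Apoa1 lower, while the groups overlapped for Ttr, Serpina1b and Hnf4a. Kupffer cell markers (6 genes) summed to 666 and 574 CPM in baicalein livers and 371 and 321 CPM in saline livers. Endothelial markers (5 genes) summed to 318 and 331 CPM in baicalein livers and 227 and 202 CPM in saline livers. The smooth muscle sum was highest in the livers with skeletal muscle transcripts, at 327 CPM in baicalein 2 and 171 CPM in saline 1. Of the latter, Des made up 151 CPM. Myh11 and Acta2 were at 108 and 101 CPM in baicalein 2 but at 6.58 and 13.1 CPM in saline 1. The 5 pancreas markers summed to at most 54.3 CPM. Of these Prss1, Cpa1 and Pnlip were at 0, and Ctrb1 had 37.4 CPM in baicalein 2 and no read in the other livers. Kidney tubule markers summed to at most 0.349 CPM, and 5 of the 7, Slc34a1, Slc5a2, Slc12a1, Kap and Aqp2, had no count in any liver. The part of these other cells in the values below was not tested, and in whole liver fewer cells of a type and less RNA per cell cannot be told apart.

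Of the 9 genes, 4 lie in the cluster on chromosome 19, and 3 of these, Slc22a26, Slc22a27 and Slc22a28, had larger fold changes than the rest of the 9. Slc22a26 and Slc22a27 were abundant in baicalein livers and had at most 19 reads in a saline liver, whereas Slc22a28 was nearly lost with baicalein and Slc22a30 had 0.497 times its saline reads after library scaling. In the positions of the deposited table (build mm10 per the submitters' processing notes, although none of the 26 Slc22 genes has the same start and end in an mm10 annotation) all 4 are on the minus strand of chromosome 19. Slc22a26 (ENSMUSG00000053303) spans 7758406 to 7780032, Slc22a27 (ENSMUSG00000067656) 7841753 to 7943392, Slc22a28 (ENSMUSG00000063590) 8039574 to 8109346 and Slc22a30 (ENSMUSG00000052562) 8312735 to 8382475. The sequences upstream of the 4 starts are shown because these genes sit side by side and have divergent values. Each is the 250 bases before the RefSeq start in build GRCm38.p6, read 5′ to 3′ on the gene's own strand. Capitals in Slc22a26 mark a match to TTCNNNGAA, the palindrome that STAT factors bind. Slc22a27 held no match. In Slc22a28 and Slc22a30 capitals mark the aligned bases that differ between this pair and those without a partner in the alignment.
Slc22a26, chr19:7802668-7802917, minus strand: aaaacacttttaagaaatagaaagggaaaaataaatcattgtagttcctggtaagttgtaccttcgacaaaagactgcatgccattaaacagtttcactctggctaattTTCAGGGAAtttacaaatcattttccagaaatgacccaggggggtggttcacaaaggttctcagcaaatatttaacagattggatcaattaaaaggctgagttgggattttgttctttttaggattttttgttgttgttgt
Slc22a27, chr19:7966028-7966277, minus strand: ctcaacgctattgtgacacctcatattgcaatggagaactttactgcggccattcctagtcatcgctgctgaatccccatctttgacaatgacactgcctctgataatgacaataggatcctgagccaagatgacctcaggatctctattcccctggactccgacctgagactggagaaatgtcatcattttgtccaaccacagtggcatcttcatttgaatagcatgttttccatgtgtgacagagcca
Slc22a28, chr19:8131983-8132232, minus strand: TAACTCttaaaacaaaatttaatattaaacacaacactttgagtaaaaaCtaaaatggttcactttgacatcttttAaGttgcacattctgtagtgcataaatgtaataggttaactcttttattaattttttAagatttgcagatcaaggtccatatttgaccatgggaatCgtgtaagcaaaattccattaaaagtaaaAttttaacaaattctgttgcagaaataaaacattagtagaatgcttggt
Slc22a30, chr19:8405106-8405355, minus strand: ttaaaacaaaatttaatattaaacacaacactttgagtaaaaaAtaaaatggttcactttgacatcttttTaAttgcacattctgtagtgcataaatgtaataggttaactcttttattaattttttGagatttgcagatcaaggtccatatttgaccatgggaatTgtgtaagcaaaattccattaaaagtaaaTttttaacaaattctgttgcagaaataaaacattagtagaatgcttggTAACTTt

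The upstream windows of Slc22a28 and Slc22a30 were 97.5% identical over 244 aligned bases, of which 6 differed. Those of Slc22a26 and Slc22a27, the pair that was higher with baicalein, were 54.7% identical over 225 aligned bases. The deposited counts of Slc22a29, a further cluster gene, were also higher with baicalein. Its window was 78.3% identical to that of Slc22a30 and 73.6% to that of Slc22a28. With Slc22a26 and Slc22a27 the values were 53.4% and 48.7%. CpG numbered 1 in Slc22a26, 4 in Slc22a27, 1 in Slc22a28 and 0 in Slc22a30, against a median of 6 and quartiles of 2 and 16 over 32851 promoter windows of the same length. By contrast Slc22a5 had 30 and Slc22a23 had 32 CpG, while Slc22a3 had 5 and Slc22a18 had 0. Among the motifs searched on both strands were TTCNNNGAA, CAAAGTCCA (an HNF4A-type site) and CACGTG (the E-box of clock factors), and no match in these genes overlapped another. These occurred in 7.02%, 0.384% and 6.02% of all windows. Among the 8 of 9 genes with a RefSeq window in this table, the match in Slc22a26, from 141 to 133 bases before the start, was the 1 match found. Slc22a7 has no entry. TTCNNNGAA was not particular to Slc22a26 within the family. The cluster gene Slc22a19, which had no read in any liver, held it at positions -224 to -216 and -123 to -115. Slc22a15 and Slc22a16 held it as well.

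Slc22a26, an anion transporter-like gene of rodents, had 190 and 194 CPM in the baicalein livers and 1.12 and 1.17 CPM in the saline livers. The groups lay far apart, and both livers within each group were nearly alike. In reads these were 2765 and 3894 in baicalein livers against 19 and 16 in saline livers, a log2 fold change of 7.39 (SE 0.13). The ratio of reads scaled by library was 169, with a 95% counting interval of 121 to 243 that covers counting error only. The log2 fold change stayed between 7.35 and 7.41 over 10 other settings of the analysis.

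Slc22a27, its neighbour and also anion transporter-like, had 34.0 and 26.7 CPM with baicalein, against 0.294 and 0.292 CPM with saline. Both baicalein livers, with 1029 reads together, were above both saline livers, with 9. The log2 fold change was 6.66 (SE 0.22) and the scaled ratio of reads 102, with a counting interval of 53.3 to 223.

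Slc22a28 ran the other way. It had 0.688 and 0.748 CPM in the baicalein livers, against 19.5 and 20.8 CPM in the saline livers, or 10 and 15 reads in baicalein livers against 332 and 285 in saline livers. The groups did not overlap, and the log2 fold change was -4.79 (SE 0.19).

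Slc22a30 kept a high level in both groups, at 104 and 95.8 CPM with baicalein and 188 and 215 CPM with saline. Every baicalein liver was below every saline liver, by a log2 fold change of -1.01 (SE 0.11). Per length it averaged 30.5 ± 0.0670 FPKM with baicalein and 58.2 ± 6.19 FPKM with saline (SD, n = 2 each).

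**Figure D1:**
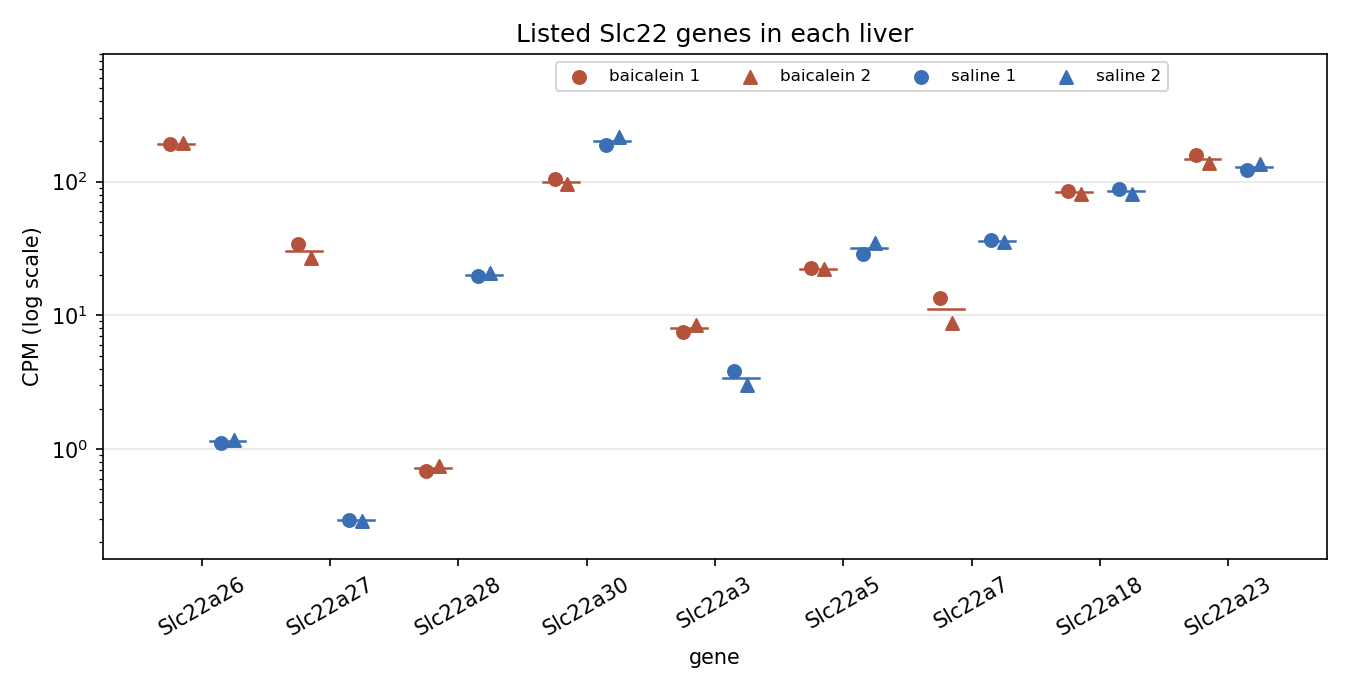
Level of the 9 Slc22 genes in each liver, in CPM on a log axis; baicalein livers are red and saline livers blue, circles are replicate 1, triangles replicate 2 and lines the mean of each group. Slc22a26 and Slc22a27 stand far higher in the baicalein livers and Slc22a28 far lower, while the 4 points of Slc22a18 lie between 81.0 and 88.4 CPM.

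Coding sequences of Slc22a28 and Slc22a30 were 98.8% identical over 1656 aligned bases, the highest value among the 15 pairs of the 6 cluster genes Slc22a19, Slc22a26, Slc22a27, Slc22a28, Slc22a29 and Slc22a30. In FPKM, Slc22a28 was at 1.11% and 1.31% of Slc22a30 in the baicalein livers, and at 17.4% and 16.3% in the saline livers, so this near-identical pair differed in how far it was lower. Slc22a26 was 73.7% to 75.2% identical to the other 5, and shared no stretch of 50 bases with any Slc22 gene. Slc22a27 was closest to Slc22a29, at 97.3%. Pairs of the 9 genes that were not both in the cluster had 50.6% to 58.7% identical coding bases, with a median of 54.3% over 30 pairs.

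The authors' treatment of reads that match several genes was not stated in any source at hand, so values of near-identical genes are uncertain to the extent of their shared sequence. Of the distinct 50-base stretches in annotated transcripts of Slc22a28, 53.3% occur also in Slc22a30, and 31.0% of those of Slc22a30 occur in Slc22a28. Slc22a27 shares 25.3% with Slc22a29. In the baicalein livers Slc22a30 had 1519 and 1921 reads while Slc22a28 had 10 and 15. Slc22a5 shares 26.1% with Slc22a21, which had at most 30 reads in any liver. The transcripts of Slc22a3, Slc22a7, Slc22a18 and Slc22a23, like those of Slc22a26, shared no such stretch with another Slc22 gene.

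**Figure D2:**
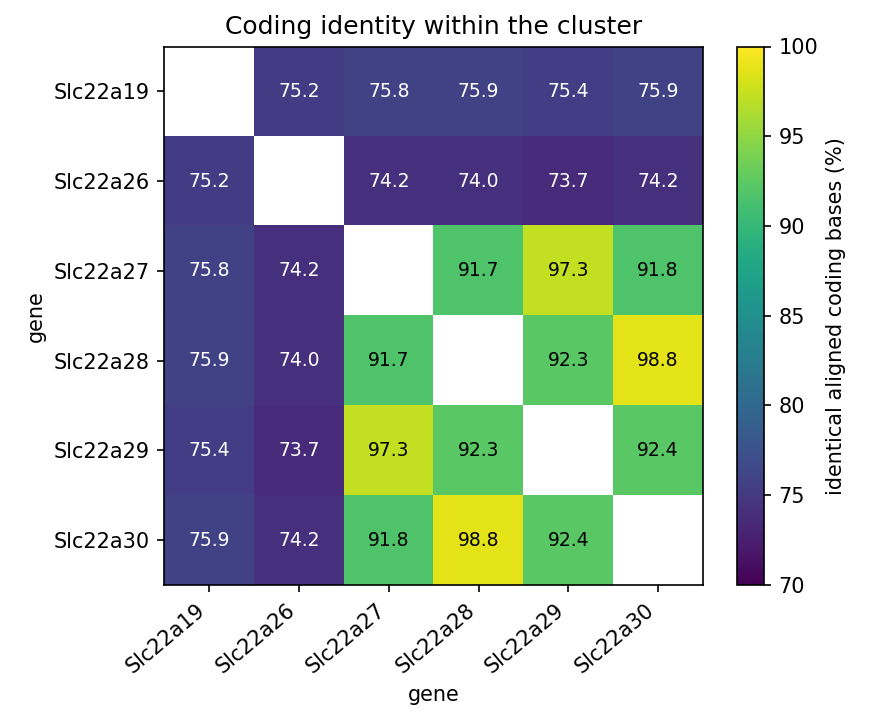
Percent of identical bases in pairwise alignments of the coding sequences of the 6 cluster genes of chromosome 19, genes on both axes and the colour scale running over 70 to 100%. Slc22a28 with Slc22a30 (98.8%) and Slc22a27 with Slc22a29 (97.3%) are the closest pairs, and Slc22a26 and Slc22a19 are at 75.9% or less with every other gene.

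Neighbours along the chromosome differed in direction. In the order of the table, Slc22a19 had no read in any liver, Slc22a26 and Slc22a27 were higher, Slc22a28 lower, Slc22a29 higher and Slc22a30 lower with baicalein. Slc22a29, which is not among the 9 genes, had 24 and 45 reads with baicalein and 1 and 2 with saline. Slc22a27, with which it shares 50-base stretches, had 494 and 535 reads in the same baicalein livers. Whether reads of Slc22a27 were counted to Slc22a29 was not tested, so the direction of Slc22a29 is that of its deposited counts. The scaled ratio of Slc22a29 reads was 20.4 with a counting interval of 6.71 to 101. Slc22a29 passed the test across all genes (adjusted p = 0.00434). The call was lost without saline 1 (adjusted p = 0.0610) and without baicalein 2 (adjusted p = 0.0812). Beyond the cluster, Slc22a8 and Slc22a6, which encode the anion transporters OAT3 and OAT1 of kidney, had at most 1 read in any liver. Of 22 further genes tested within 300000 bases of this stretch, none was higher and 3 were lower at the threshold, Atl3, Ubxn1 and B3gat3, with a log2 difference of -0.36 (SE 0.09) for Atl3, -0.55 (SE 0.10) for Ubxn1 and -0.47 (SE 0.12) for B3gat3. That share is near the 15.5% called among all tested genes. These 3 were named after their values had been seen. The calls of Atl3 and B3gat3 were lost in each of the 4 fits with 1 liver omitted, with adjusted p up to 0.283 and 0.204, and that count was then 1, except 2 without baicalein 1. Summed over the 6 cluster genes, the level was 111 and 116 FPKM in the baicalein livers and 63.7 and 73.4 FPKM in the saline livers.

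**Figure D3:**
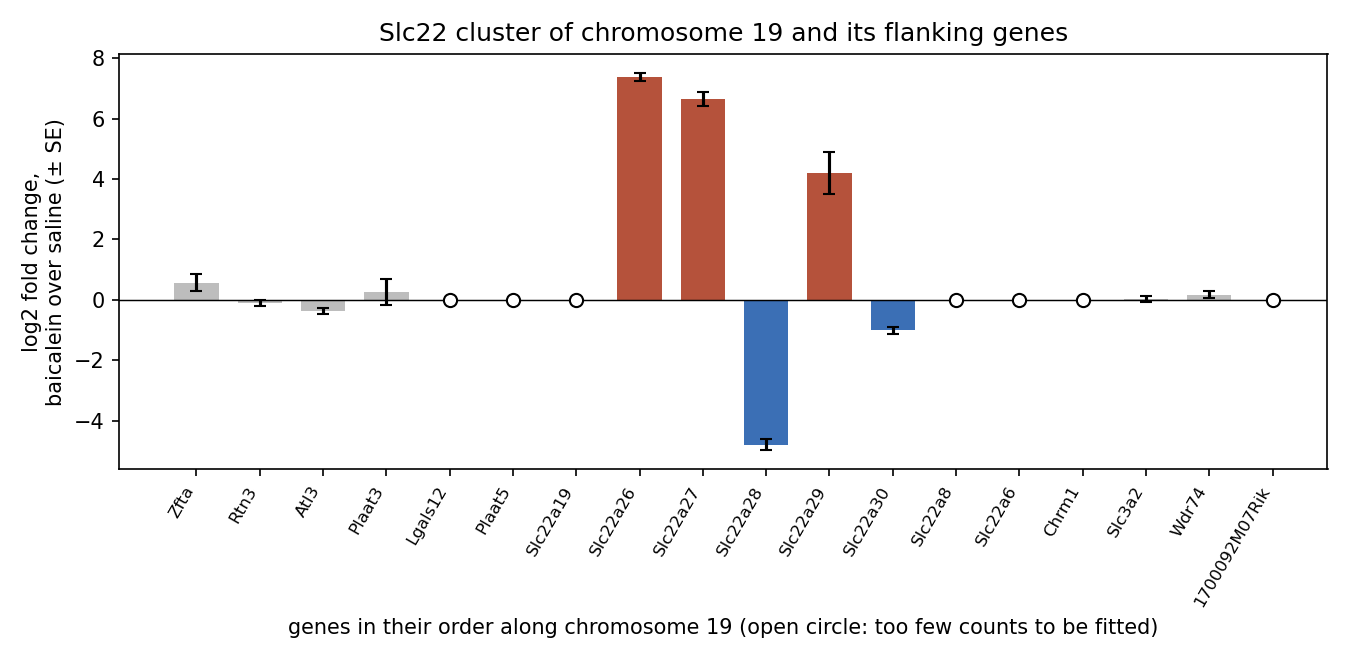
Log2 fold change of baicalein over saline with its SE for the cluster genes (red above 0, blue below) and their flanking genes (grey), in their order along chromosome 19; open circles had too few counts. Slc22a26 and Slc22a27 at 7.39 and 6.66 stand next to Slc22a28 at -4.79, and the flanking genes shown lie between -0.36 and 0.57.

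Slc22a3, Slc22a5 and Slc22a7 have better known substrates. Slc22a7 and Slc22a5 were lower with baicalein and Slc22a3 was higher. Slc22a7 (ENSMUSG00000067144, chromosome 17, 46743109 to 46749383) encodes OAT2, an anion transporter of hepatocytes. It had 13.5 and 8.83 CPM in the baicalein livers, against 36.3 and 35.3 CPM in the saline livers. Both baicalein values were below both saline values, although the baicalein livers differed from each other more than for any other of the 9 genes, by 0.59 on the log2(CPM + 0.5) scale. The log2 fold change was -1.68 (SE 0.21), and ran over -2.03 without baicalein 1 to -1.40 without baicalein 2.

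Slc22a5 (ENSMUSG00000018900, chromosome 11, 53755368 to 53782486) encodes OCTN2, the sodium-dependent carnitine importer. Its level was 22.4 and 22.3 CPM with baicalein, against 28.9 and 34.9 CPM with saline. The groups did not overlap, at a log2 fold change of -0.51 (SE 0.12), and the saline liver with the lower value was the one with skeletal muscle transcripts. Slc22a5 per length averaged 7.47 ± 0.399 FPKM with baicalein and 10.1 ± 1.46 FPKM with saline (SD, n = 2 each).

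Slc22a3 (ENSMUSG00000023828, chromosome 17, 12637847 to 12726591) encodes OCT3, a low-affinity carrier of monoamines and other cations. It had 7.50 and 8.48 CPM in the baicalein livers, against 3.82 and 2.99 CPM in the saline livers, a log2 fold change of 1.23 (SE 0.24). Neither baicalein liver reached down to a saline liver, and within each group the liver with skeletal muscle transcripts was the higher one. The table's positions place 426 bases of Slc22a3 over Plg, the plasminogen gene on the opposite strand, which had at least 36275 reads in every liver. The sources at hand do not state if counting used strand, so reads of Plg in the Slc22a3 counts cannot be told apart from its own. Plg itself had a log2 fold change of 0.14 (SE 0.12).

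Slc22a18 and Slc22a23 showed small differences. Slc22a18 (ENSMUSG00000000154, chromosome 7, 143027473 to 143053071) is an imprinted gene of the Kcnq1 domain, expressed from the maternal allele. It had 85.7 and 81.0 CPM with baicalein and 88.4 and 81.2 CPM with saline. The groups overlapped, and the log2 fold change of -0.03 (SE 0.10) changed sign without saline 1, to 0.03, and without baicalein 2, to 0.02. Slc22a23 (ENSMUSG00000038267, chromosome 13, 34363141 to 34529165), a transporter-like gene without an established substrate, had 158 and 137 CPM in the baicalein livers and 122 and 135 CPM in the saline livers. The baicalein livers were above the saline livers by as little as 136.8 CPM in baicalein 2 against 134.9 CPM in saline 2, and the log2 fold change was 0.20 (SE 0.11).

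By the rule that an adjusted p below 0.05 counts as a call, 3 of the 9 genes were called higher and 4 lower, against 7.65% and 7.90% of all 12657 genes tested. Slc22a18 and Slc22a23 were not called. Without saline 2 the counts were 2 higher and 2 lower. The 9 genes were picked with this comparison in view, so nothing is read from these shares. Slc22a26, Slc22a27 and Slc22a28 were both called and at least 4-fold apart, as were 1.40% of all tested genes. In 8 of 9 the groups did not overlap, 4 higher and 4 lower with baicalein, as was so for 59.2% of all tested genes (29.7% higher and 29.5% lower). The median log2 fold change of the 9 genes was -0.03, beside 0.01 over all tested genes.

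**Figure D4:**
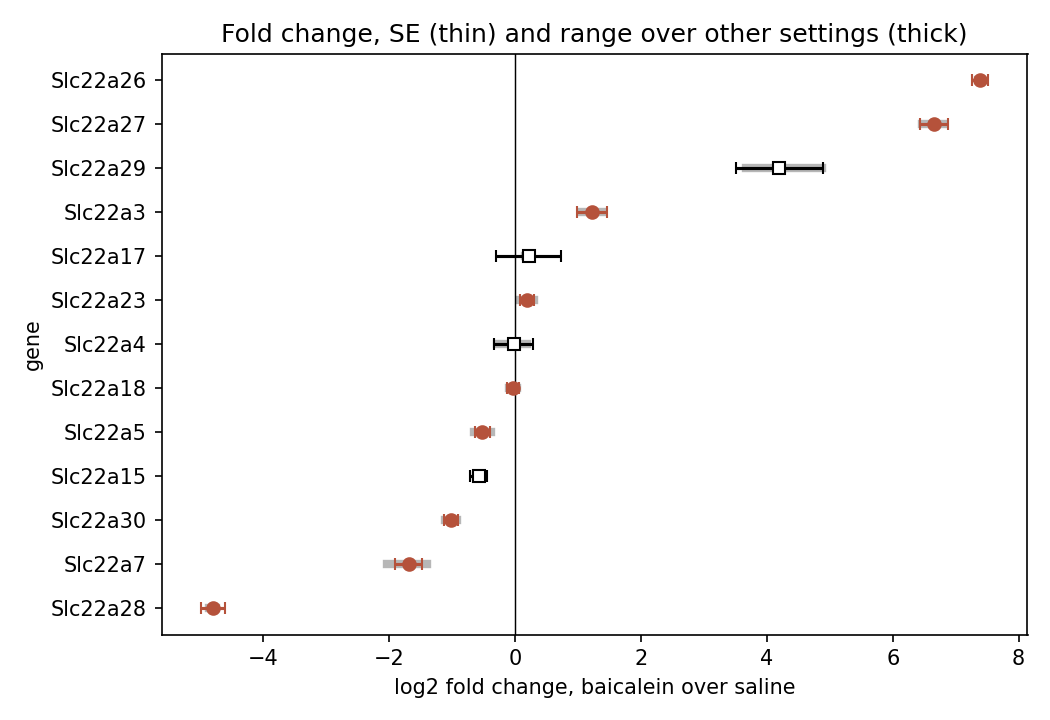
Log2 fold change of baicalein over saline for tested Slc22 genes, the 9 described genes as red circles and other family members as open squares, with the SE as thin bars and the lowest to highest value over up to 10 other settings as thick bars. Slc22a26 and Slc22a27 lie to the far right and Slc22a28 to the far left with short bars, and Slc22a29 has the widest range, 3.66 to 4.88.

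In level per length the order of the 9 genes with baicalein was Slc22a26, Slc22a18, Slc22a30, Slc22a23, Slc22a27, Slc22a5, Slc22a7, Slc22a3 and, lowest at 0.369 ± 0.0436 FPKM (SD, n = 2), Slc22a28. The values of Slc22a30 and Slc22a23 were 30.5 and 30.5 FPKM against 24.3 and 22.9 FPKM in these livers, so that neighbouring ranks stayed apart, as did Slc22a5 (7.19 and 7.75 FPKM) and Slc22a7 (6.35 and 4.50 FPKM). With saline the order was Slc22a30, Slc22a18, Slc22a23, Slc22a7, Slc22a5, Slc22a28, Slc22a3, Slc22a26 and Slc22a27, of which Slc22a5 (9.07 and 11.1 FPKM) and Slc22a28 (9.37 and 10.2 FPKM) overlapped. In saline livers Slc22a26 averaged 0.376 ± 0.0167 FPKM and Slc22a27 0.132 ± 0.00108 FPKM (SD, n = 2 each). The 9 genes together summed to 199 and 203 FPKM in the baicalein livers and 159 and 169 FPKM in the saline livers.

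**Figure D5:**
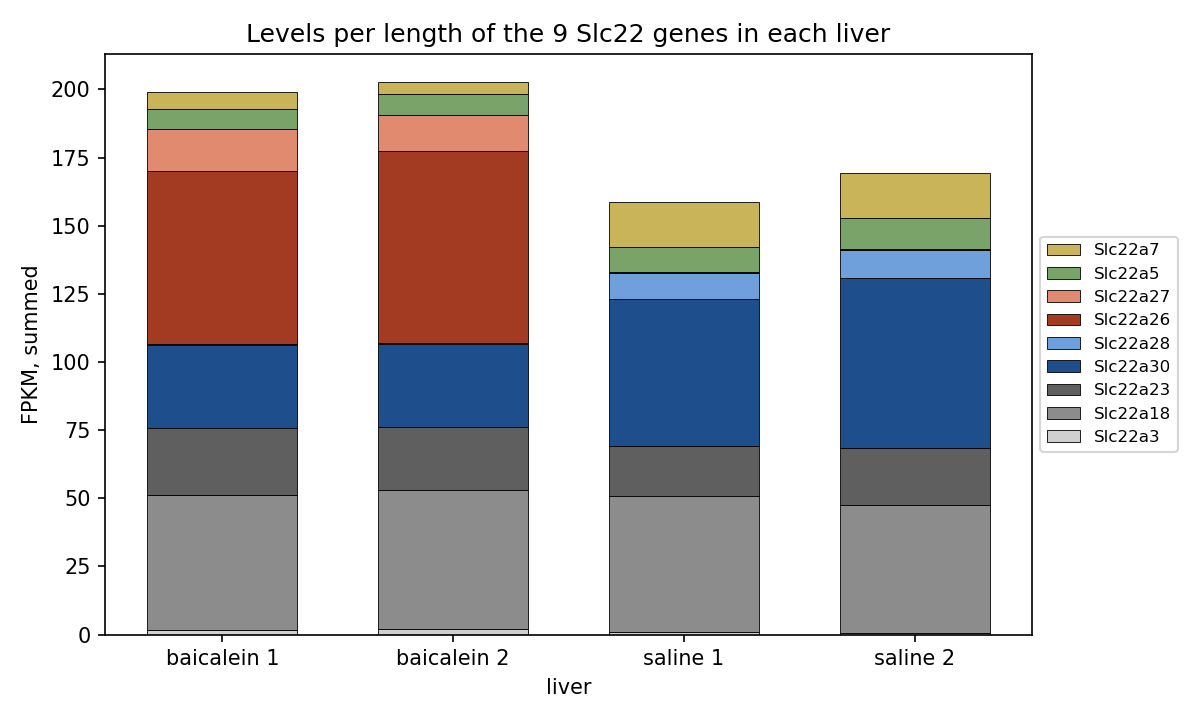
FPKM of the 9 described Slc22 genes stacked for each liver, baicalein livers on the left and saline livers on the right. The bars reach 199 and 203 FPKM with baicalein and 159 and 169 FPKM with saline, and red Slc22a26 is visible only in the baicalein bars at this scale, where dark blue Slc22a30 is shorter.

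The other 17 Slc22 genes were set beside the 9 described above; that division was itself made with values known. Of the 17, 6 had no read in any liver and 5 had enough reads to be tested. Of these 5, Slc22a29 was called higher and Slc22a15 lower, and 3 did not pass. Slc22a15, a carrier of zwitterions in work on the human protein, had 10.9 and 10.7 CPM with baicalein, against 15.8 and 16.4 CPM with saline (log2 fold change -0.57, SE 0.13, adjusted p = 0.0205). That call was lost with each liver left out in turn (adjusted p = 0.0622 without saline 1, 0.117 without saline 2, 0.0964 without baicalein 1 and 0.119 without baicalein 2) and with DESeq2. Slc22a4, the ergothioneine transporter OCTN1 that neighbours Slc22a5, had 2.96 and 4.14 CPM with baicalein and 3.76 and 3.43 CPM with saline (log2 fold change -0.02, SE 0.31, adjusted p = 0.981), so the groups overlapped. Slc22a17, which encodes a receptor for lipocalin 2, had 1.03 and 1.10 CPM with baicalein and 0.882 and 0.948 CPM with saline, and did not pass (adjusted p = 0.832).

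Genes that make or use carnitine, the cargo of Slc22a5, were examined as a group of 11, of which 9 were tested. Slc25a20, the carnitine-acylcarnitine carrier of mitochondria, fell to 106 and 92.1 CPM in baicalein livers, against 157 and 160 CPM in saline livers (adjusted p = 0.00323). Cpt2, a carnitine palmitoyltransferase, fell by 0.68 on the log2 scale (SE 0.10, adjusted p = 0.00221). Crot, the carnitine octanoyltransferase of peroxisomes, fell by 0.81 (SE 0.12, adjusted p = 0.00219), but did not pass once saline 2 was omitted (adjusted p = 0.0613). Slc16a9, a carnitine efflux carrier in work on the human protein, rose to 3.92 and 3.84 CPM in baicalein livers, against 1.47 and 1.24 CPM in saline livers (adjusted p = 0.0202), a call lost without any 1 of the 4 livers (adjusted p up to 0.136). Thus 1 rose, 3 fell and 5 did not pass, beside 7.65% higher and 7.90% lower among all tested genes, with a median log2 fold change of -0.20. This list, like the other gene lists below, was chosen with earlier results of these data known, so nothing is read from such shares. Among those that did not pass, Cpt1a was at 512 and 458 CPM with baicalein and 549 and 568 CPM with saline. Bbox1, the last enzyme of carnitine synthesis, was at 168.0 and 159.7 CPM with baicalein and 138 and 148 CPM with saline.

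Carriers of cations, nucleosides and urate outside the family were mixed. Of 9 tested, 2 rose, 1 fell and 6 did not pass (all tested genes: 7.65% higher and 7.90% lower), with a median log2 fold change of 0.32. Abcg2, an efflux pump for urate and drugs, fell to 37.9 and 38.5 CPM in baicalein livers, against 127 and 140 CPM in saline livers (log2 fold change -1.80, SE 0.10, adjusted p = 1.18e-05). Slc29a1, the nucleoside carrier ENT1, rose to 199 and 162 CPM in baicalein livers, against 79.0 and 86.4 CPM in saline livers (log2 fold change 1.12, SE 0.12, adjusted p = 5.60e-04). Slc17a4 also rose, by 0.61 on the log2 scale (SE 0.14, adjusted p = 0.0287), but of the fits omitting a liver it passed only in that without saline 2 (highest adjusted p 0.186). Slc47a1, which encodes the cation exporter MATE1, was at 153 and 132 CPM with baicalein and 129 and 117 CPM with saline and did not pass.

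Among 9 enzymes acting on substrates of these carriers 3 rose, 1 fell and 5 did not pass (all tested genes: 7.65% higher and 7.90% lower). The median log2 fold change was 0.009, and the gene that fell is not reported here. Maob, a monoamine oxidase, rose by 0.53 (SE 0.10, adjusted p = 0.00747), Xdh, which makes urate, by 0.46 (SE 0.10, adjusted p = 0.0178) and Gamt, which makes creatine, by 0.59 (SE 0.15, adjusted p = 0.0439). None of these 3 was called without saline 1 or without saline 2 (adjusted p up to 0.264), and Xdh and Gamt were not called without baicalein 1 either.

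Of 12 scaffold and regulator genes linked to transporter genes, 2 rose, 4 fell and 6 did not pass (all tested genes: 7.65% higher and 7.90% lower), with a median log2 fold change of -0.03. Cux2, a repressor that mouse liver uses mainly in females, rose to 8.66 and 6.94 CPM in baicalein livers, against 0.588 and 0.802 CPM in saline livers (log2 fold change 3.48, SE 0.33, adjusted p = 2.37e-04). Nr1i3, the receptor CAR, rose by 1.07 on the log2 scale (SE 0.16, adjusted p = 0.00264). Bcl6, a repressor that shares sites with STAT5, fell by 0.60 (SE 0.10, adjusted p = 0.00352). Stat5a, Stat5b and Cebpb fell by 0.58, 0.35 and 0.83 on that scale (adjusted p = 0.0154, 0.0483 and 0.0139). These last 3 lost their calls, Stat5a without saline 1, baicalein 1 or baicalein 2, Stat5b without any 1 of the 4 livers and Cebpb without saline 1 or saline 2, with adjusted p up to 0.0954, 0.246 and 0.149. Hnf4a, Ppara, Nr1i2, Nr1h4 and the scaffold gene Pdzk1 were among those that did not pass, with log2 fold changes between -0.07 and 0.04.

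Imprinted genes that lie near Slc22a18 and Slc22a3 were tested in 6 cases of 12, where 1 fell and 5 did not pass, a share near the 15.5% called among all tested genes, with a median log2 fold change of 0.02. Cd81 fell by 0.38 on the log2 scale (SE 0.10, adjusted p = 0.0412), and passed only in the fit without baicalein 1 among those that omitted a liver (highest adjusted p 0.220). Kcnq1 had 2.13 and 9.43 CPM with baicalein and 1.59 and 0.875 CPM with saline and did not pass. With baicalein 1 omitted, and with DESeq2, 1 gene of this list was called higher, which was 0 in edgeR's fit of all livers. Igf2r was at 81.6 and 86.0 CPM with baicalein and 82.5 and 78.9 CPM with saline.

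For each of the 9 genes, the genes of most similar pattern were sought among all tested genes outside the family, by the distance between their 4 centred log2 CPM values. With 4 livers this only describes the patterns. Nearest to Slc22a26 were Cyp3a44, Cyp3a41a and Cyp3a41b, which had no read in either saline liver, and the distance of Cyp3a44 was 0.0776 against a median of 6.88 over the genes compared. Where a gene has no read, or a level near 0.5 CPM in a group, its distance depends on the offset of 0.5 CPM. The fitted log2 fold changes of these 3 genes were 12.9, 12.8 and 12.1, against 7.39 for Slc22a26, so the patterns are less alike than the distances. Next to Slc22a27 stood Cyp3a16, Acot3 and Sult2a5, with Acot3, a peroxisomal thioesterase gene, at 40.4 and 38.2 CPM with baicalein and 0.294 and 0.365 CPM with saline. Cyp3a16 and Sult2a5 also had no read with saline. Their log2 fold changes were 11.6 and 11.7, and that of Acot3 6.88, against 6.66 for Slc22a27. Slc22a28 was closest to Cyp2d9, Mup19 and Mup16, and Slc22a30 to Arsg, Cyp4f17 and Proca1. The log2 fold changes of Cyp2d9, Mup19 and Mup16 were -3.79, -4.31 and -4.41, against -4.79 for Slc22a28, which is itself near the offset with baicalein. Slc22a7 was closest to Lrg1, Eps8l2 and Csad, of which Lrg1, a secreted acute phase glycoprotein gene, had 28.4 and 20.9 CPM with baicalein and 81.6 and 78.5 CPM with saline. The nearest to Slc22a5 were Foxn3, Tecpr2 and Abhd11, and to Slc22a3 they were Tmem26, Zfpm2 and Tet2. Slc22a18 and Slc22a23, which differed little between groups, had the closest matches, Anapc13 at 0.0136 and Tmem25 at 0.00989, against medians of 0.376 and 0.455.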

How the data were processed

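RNA of 4 mouse livers was extracted with a column kit and made into libraries with a SMARTer mRNA kit, per the labels' protocols. The authors deposited 1 table with whole-number read counts and FPKM values per gene and liver. The genome build was mm10 per the submitters' processing notes, while aligner, counter and annotation were not stated in any source at hand. Of 21851 gene IDs shared with GENCODE M21 (mm10), 514 had the same start and end, and none of the 26 Slc22 genes did, so gene positions are the table's own and are kept apart from those of GRCm38.p6. The deposited FPKM of Slc22 genes equalled count over length and library total to within 0.00387%.

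Columns were tied to livers by name and groups taken from the treatment labels. Counts were filtered with filterByExpr (12657 of 21959 genes kept), normalised with TMM factors, and compared in R 4.3.3 by edgeR 4.0.16 (quasi-likelihood test, robust fit, baicalein against saline, two-sided, Benjamini-Hochberg over all tested genes, threshold 0.05). An SE is the log2 fold change over the square root of the F statistic. An exact permutation test of 2 against 2 livers cannot go below p = 0.333, so p-values rest on spread shared between genes (biological coefficient of variation 0.289). Counts of 3 corresponded to 0.150 to 0.219 CPM per library, and a log2 distance used an offset of 0.5 CPM. The fit was also run on simulated counts with the same spread for every gene, a run that cannot show how it performs on these livers. The 2 livers of a group differed by more than sampling noise (chi-square per degree of freedom 18.7 for baicalein and 23.4 for saline).

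The members and gene lists were chosen with earlier results of these data known. Genes were named by rule: all Slc22 genes, called members of 5 context lists, and the 3 nearest genes in pattern. Some genes of the family and lists are not reported here. Cpt1a, Bbox1, Slc47a1, Kcnq1, Igf2r, the regulators that did not pass and flanking genes fall outside the rule and were named after their values were seen. Alternatives were median-of-ratios factors, DESeq2 1.42.0, no filter, a minimum mean CPM of 1, a block on replicate numbers, and omission of each liver in turn. Promoter windows are from RefSeq (GRCm38.p6). Coding sequences and transcripts are from GENCODE M21, aligned with Biopython 1.88.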

Additional observations from a re-analysis of the deposited data

How the results depend on the processing

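All 9 Slc22 genes kept the direction of their fold change over the 10 alternatives, except Slc22a18, whose value lay near 0, and none of the 9 moved by more than 1.5 times in fold. Fewer genes were called with 1 liver left out, at 521 to 665 higher and 535 to 663 lower over the 4 such fits, against 968 and 1000 with all livers; those fits also have fewer degrees of freedom. The unlisted Slc22 genes called were then 0 to 1 higher and 0 to 0 lower, against 1 and 1. Under a replicate block, 531 genes were higher and 601 lower, and 0 unlisted Slc22 genes were lower. DESeq2 also called 0 unlisted Slc22 genes lower (864 and 964 genes in all). The cause of these losses was not tested. The difference between replicates 1 and 2 correlated at -0.74 between the groups. Saline 1 and baicalein 2 were also the livers with skeletal muscle transcripts, so this value cannot show whether the replicate numbers pair the livers. With pairs crossed (saline 1 with baicalein 2, saline 2 with baicalein 1), chosen after seeing the data, 1809 genes were higher and 1689 lower. Among the other values 663 kept their call or moved by less than the spread, 72 lost a call, 3 gained one and 43 moved by more. A further 7 changed sign, in genes outside the 9 that were not called in either fit. The sign changes of Slc22a18 were sorted by size of move and are not among these 7. These 7 came from fits with 1 liver left out, over which log2 fold changes ran from -0.28 to 0.19 for Slc22a4, -0.100 to 0.0203 for Anapc13, -0.104 to 0.0200 for Ess2 and -0.0965 to 0.00883 for Suox. Depth limits Slc22a27, Slc22a28 and Slc22a29, which rest on 9, 25 and 3 reads in the group where each is low.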

Other observations

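Genes flanking the loci of Slc22a3, Slc22a5, Slc22a7 and Slc22a18 were read beside those of the chromosome 19 cluster, chosen by position in the table. The window was 300000 bases, but narrower for Slc22a7. The loci of Slc22a23, Slc22a15 and Slc22a17 were not read. Across the 5 loci 48 flanking genes were tested, of which 2 were higher and 4 lower with baicalein, beside 7.65% higher and 7.90% lower among all tested genes, and with 1 liver left out the counts were 1 to 2 and 2 to 3. Irf1, an interferon regulatory factor gene near Slc22a5, had 56.7 and 55.8 CPM in baicalein livers, against 34.6 and 33.9 CPM in saline livers (log2 fold change 0.72, SE 0.09, adjusted p at most 0.0174 over all alternatives). Near Slc22a18, Cars, a cysteine tRNA ligase gene, fell by 0.69 on the log2 scale (SE 0.12). Osbpl5, a lipid transfer protein gene also near Slc22a18, rose by 1.39 (SE 0.30), and was not called without saline 2 or baicalein 2 (adjusted p up to 0.150). No flanking gene of Slc22a7, or of the stretch with Slc22a3, passed among 4 and 8 tested. These genes were named after their values had been seen.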
